A study of Mus musculus with 18 samples.

Results

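The Wnt signalling genes described here are 48 genes chosen by name: ligands, the proteins that release them, receptors, secreted inhibitors, cytoplasmic relay proteins and nuclear partners of β-catenin. They were chosen with earlier results of these data known, so the shares given for them are not independent evidence. A peak was counted to a gene when its annotation named that gene, or when the gene to which the authors' table assigned it spanned the centre of the peak. By this definition 39 of the 48 genes held 123 differential m6A peaks, out of 40929 peaks used and 28573 that lay in any gene. In all, 11895 genes held a peak. Among protein-coding genes of the RefSeq annotation, 42.3% held a peak in at least 1 table. No peak was held by Wnt2b, Wnt6, Porcn, Fzd4, Ror2, Lgr5, Notum, Dvl3 or Gsk3b.

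Wnt proteins are secreted, lipid-modified ligands that bind Frizzled receptors. With the co-receptors Lrp5 and Lrp6 they stop a cytoplasmic destruction complex, built on Axin and Apc, from removing β-catenin, which then enters the nucleus and activates genes with Tcf and Lef factors. In the mouse uterus this pathway is known for its part in gland formation, implantation and decidualization. N6-methyladenosine (m6A) is a methyl mark on adenosines of mRNA, most often within the DRACH motif (A, G or T, then A or G, then AC, then A, C or T), and it is known to influence splicing, decay and translation of the RNA that carries it.

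Uteri were collected on day 5 of pregnancy from female ICR mice of 8 weeks, labelled WT. Veh mice received 0.9% saline by intraperitoneal injection every day from D1 to D4. LPS mice received the same saline and, on D3 and D4, bacterial lipopolysaccharide at 0.5 mg/kg, given 30 min after it. Mel+LPS mice received melatonin at 10 mg/kg from D1 to D4 and the same LPS injections. The melatonin solution held 3% ethanol, whereas the labels name saline alone for Veh and LPS. Whole uterus was used, so luminal and glandular epithelium, stroma, muscle, vessels and leukocytes were mixed, and fewer cells of a type and less RNA per cell cannot be told apart. Markers with a peak in these tables numbered 4 of 6 for uterus, 4 of 5 for epithelium, 5 of 5 for smooth muscle, 3 of 3 for endothelium and 2 of 6 for leukocytes. For each treatment 3 input and 3 m6A-immunoprecipitated (IP) libraries were made, 18 in all, and neither the mice per library nor the depth is known here.

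The tables list differential peaks. Peaks higher in LPS than in Veh are called LPS-up and lower ones LPS-down. Peaks higher in Mel+LPS than in LPS are called Mel-up and lower ones Mel-down. Each peak carries 1 value, the log10 likelihood ratio (LLR) for a difference in signal between the treatments: the higher the LLR, the better a difference explains the reads than no difference. The lowest LLR listed was 1.01. Values per library are not in these tables, so spread between mice cannot be set beside any value, and no test was made. The LLR is a strength of evidence and not a fold change, and the tables hold no RNA level, so a change in methylation and a change in the amount of RNA cannot be told apart. The LPS-down table breaks off early, and only its entries on chromosomes 1 to 9 were taken, where 25 of the 48 genes lie. For the other 23 genes no statement on this table is made. Both comparisons use the LPS libraries, so a site that was high in these libraries can be listed as both LPS-up and Mel-down. Their values are therefore given side by side for each gene.

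The following sequences show where the main peaks lay. They are GENCODE (release 21, GRCm38) transcript sequences, 5′ to 3′, written with T for U, and DRACH is in capitals. The first 5 are the coding parts of peaks. In Lrp6, the part of exon 10 under the peak with the highest LLR (11.4) covers chr6:134484214-134484372 on the minus strand. In Wnt2, part of exon 3 covers chr6:18023061-18023170 on the minus strand. In Sfrp5, part of exon 3 covers chr19:42198703-42198903 on the minus strand. The stretch of Ror1 exon 9 at chr4:100441521-100441670, plus strand, lies under a peak of both comparisons, as does that of Axin2 exon 6 at chr11:108942544-108942696, plus strand.
Lrp6 exon 10: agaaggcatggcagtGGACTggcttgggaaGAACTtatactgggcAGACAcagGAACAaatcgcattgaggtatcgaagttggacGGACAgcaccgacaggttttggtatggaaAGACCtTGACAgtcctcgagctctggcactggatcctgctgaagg
Wnt2 exon 3: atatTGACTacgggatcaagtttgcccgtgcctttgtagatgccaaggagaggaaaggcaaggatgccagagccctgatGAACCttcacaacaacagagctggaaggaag
Sfrp5 exon 3: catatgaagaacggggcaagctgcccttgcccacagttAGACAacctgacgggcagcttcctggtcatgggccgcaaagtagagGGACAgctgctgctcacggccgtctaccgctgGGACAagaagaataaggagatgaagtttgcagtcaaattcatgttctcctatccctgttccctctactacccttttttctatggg
Ror1 exon 9: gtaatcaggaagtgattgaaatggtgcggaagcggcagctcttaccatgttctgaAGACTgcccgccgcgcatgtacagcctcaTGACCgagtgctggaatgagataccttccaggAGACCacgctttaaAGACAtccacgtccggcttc
Axin2 exon 6: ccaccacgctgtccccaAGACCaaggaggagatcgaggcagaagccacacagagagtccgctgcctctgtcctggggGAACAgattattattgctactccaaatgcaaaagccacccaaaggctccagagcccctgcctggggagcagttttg
The last 3 are short sites in 3′UTRs, with only the DRACH motif nearest to the peak centre in capitals: Fzd1 at chr5:4753992-4754016 (minus strand, exon 1), Wnt11 at chr7:98853350-98853374 (plus strand, exon 7) and Fzd5 at chr1:64730842-64730866 (minus strand, exon 2).
Fzd1 site: taccctaaaaTGACAttggtttttg
Wnt11 site: agaccttggtGGACTtccctgcaga
Fzd5 site: tcgcaaaaggAGACCcagagcgtct
The Lrp6 stretch holds 7 DRACH motifs in 159 bases and 3 GGAC, whereas the Wnt2 stretch holds 2 DRACH in 110 bases and no GGAC. Which adenosine was methylated cannot be read from these peaks.

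The share of Wnt signalling genes with a peak was near that of all genes in 3 of the 4 tables and higher for Mel-up peaks. LPS-up peaks were held by 16 of 39 genes (41.0%, Wilson 95% interval 27.1–56.6), beside 46.7% of all genes with a peak. LPS-down peaks were held by 11 of 22 genes on chromosomes 1 to 9 (50.0%, 30.7–69.3), beside 48.0%. A Mel-up peak was held by 28 of 39 genes (71.8%, 56.2–83.5), beside 55.6% of all genes. Mel-down peaks were held by 13 genes (33.3%, 20.6–49.0), beside 37.6%. The intervals for LPS-up, LPS-down and Mel-down peaks contained the share of all genes. The lower limit for Mel-up peaks was just above the share of all genes. The intervals cover the counting of genes only, not the spread between mice. They also leave out that the genes were chosen with earlier results of these data known.

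**Figure D1:**
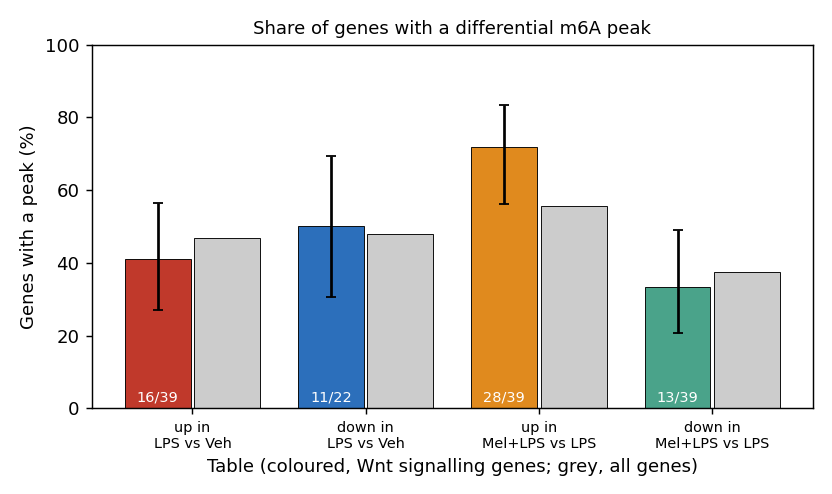
Bars give the share of genes with a peak (%) in each of the 4 tables, coloured for the Wnt signalling genes (counts at the foot, Wilson 95% intervals over genes as error bars) and grey for all genes with a peak. The coloured bar stands above the grey one by most for Mel-up peaks (71.8% beside 55.6%), and the interval contains the grey level in the other 3 tables.

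The 123 peaks comprised 28 LPS-up, 18 LPS-down, 55 Mel-up and 22 Mel-down peaks, so that 44.7% were Mel-up, beside 36.6% over all genes. Their median LLR was 1.58, 2.25, 2.35 and 1.70 in this order, against 2.76, 2.57, 2.18 and 3.09 over the peaks of all genes. The strongest peak reached 6.19, 8.15, 11.4 and 6.95. An LLR of at least 3 was reached by 5 of 28 LPS-up peaks (17.9%, all genes 47.2%), 8 of 18 LPS-down peaks (44.4%, all genes 44.5%), 20 of 55 Mel-up peaks (36.4%, all genes 32.8%) and 6 of 22 Mel-down peaks (27.3%, all genes 50.8%). Of all 123 peaks, 39 (31.7%) reached it, beside 42.3% over all genes, and each of the high ones is named with its gene. Single values above 3 recur in the whole series: 3.78 in 1450 of 12023 LPS-up peaks and 3.85 in 1370 of 9211 Mel-down peaks. For LPS-down the commonest value was 3.63 (734 of 6259 peaks), and for Mel-up it was 5.42 (479 of 13436 peaks). Such values enter the shares and medians of all genes, so lower ones here cannot be read as weaker peaks. A gene held a median of 2 peaks and at most 9 (Apc).

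Many of the genes were listed in 1 direction, which is fixed in advance for a gene with 1 peak in a comparison. Of the 39 genes, 12 held a single peak in all (30.8%, all genes 41.2%). On chromosomes 1 to 9, Bcl9, Fzd5, Lgr4 and Wnt11 held LPS-up peaks without an LPS-down peak, and Ctnnb1, Fzd1, Lef1, Lrp6, Ror1, Sfrp2 and Tcf7l1 held LPS-down peaks without an LPS-up peak. Bcl9l, Tnik, Vangl1 and Wnt2 held both, which is 4 of 15 genes (26.7%), beside 18.8% of all genes with a peak there. Of Mel-up and Mel-down, 21 genes held the first alone, 6 held the second alone (Axin2, Fzd5, Vangl1, Vangl2, Wnt11 and Wnt2), and 7 of 34 held both (20.6%, all genes 16.8%). For genes with both, a single direction per gene cannot be given.

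**Figure D2:**
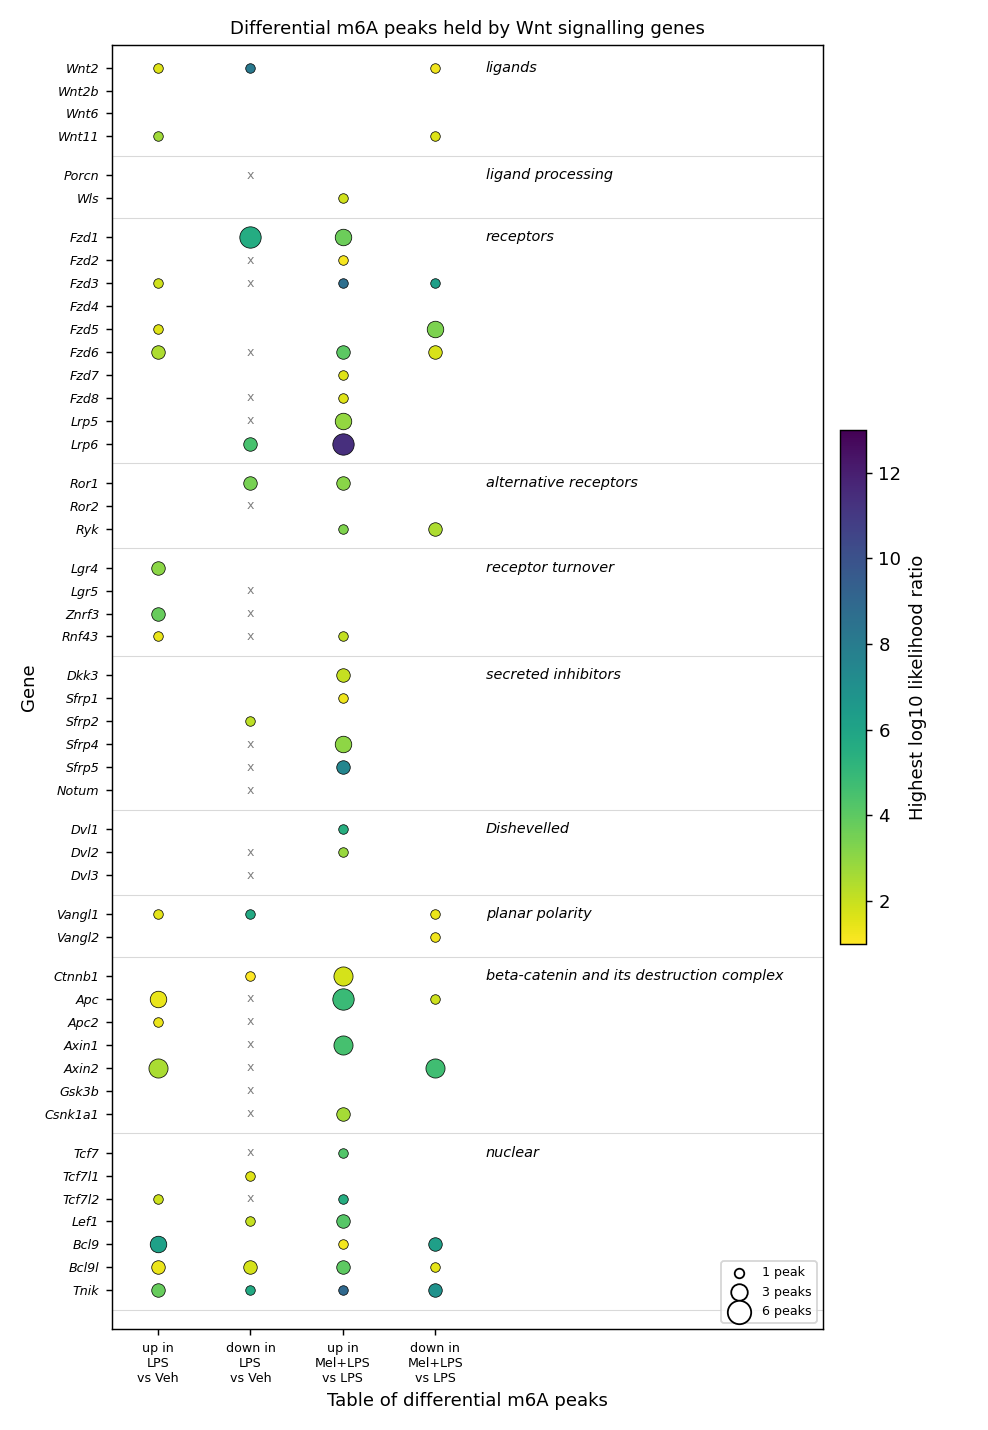
Rows are the 48 Wnt signalling genes by role and columns are the 4 tables. The circle area gives the number of peaks, the colour the highest log10 likelihood ratio, and x marks genes for which the LPS-down table was not used. The darkest circle is Lrp6, Mel-up (11.4), and Bcl9l and Tnik alone have a circle in all 4 columns. Only genes on chromosomes 1 to 9 could have this, and Apc, Fzd3 and Fzd6 have a circle in all 3 columns used for them.

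Of the 4 ligands, Wnt2 and Wnt11 held peaks and Wnt2b and Wnt6 did not. Wnt2 is a ligand that acts through Frizzled receptors. Its peak in exon 3 of 5 (chr6:18022971-18023170) was LPS-down with an LLR of 8.15, the highest of the 18 LPS-down peaks. In its 3′UTR, a peak at chr6:17989271-17989392 was LPS-up (1.57) and one at chr6:17989277-17989391 was Mel-down (1.24). The value of this Mel-down peak is shared by 79 peaks of that table. The coding sequence and the 3′UTR of Wnt2 were thus listed in opposite directions for LPS against Veh. Wnt11, a ligand known mostly for β-catenin-independent signalling, had peaks in the 3′UTR only. The one at chr7:98853330-98853459 was LPS-up (2.71), and a wider one with the same start, up to 98853609, was Mel-down (1.64). The centre of the narrower Wnt11 peak lay 107 bases past the stop codon. Wls, the carrier that brings Wnt proteins to the cell surface, held 1 Mel-up peak at exon 4 (1.88), and Porcn, the enzyme that attaches the lipid to Wnt proteins, held none.

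The 10 receptors held 34 peaks in 9 genes, of which 17 were Mel-up (50.0%, beside 44.7% of the peaks of all 48 genes and 36.6% of the peaks of all genes). Lrp6, the co-receptor that is phosphorylated when Wnt binds, had the highest LLR of all. Its Mel-up peaks were at exon 10 (chr6:134484203-134484372, LLR 11.4), intron 7 (chr6:134506007-134506189, 9.42), exon 9 (1.41), exon 2 (1.27) and exon 6 (1.26). Its LPS-down peaks were at exon 7 (chr6:134506026-134506212, 4.52) and at exon 2 (chr6:134541759-134542019, 4.11). The intron 7 and exon 7 peaks lie on the same stretch, whose centre is 98 or 77 bases past the 3′ end of exon 7, so the class names differ by a shift of few bases. No Lrp6 peak held under the definition was LPS-up or Mel-down. Lrp5, the related co-receptor, held 3 peaks, at exons 7, 2 and 6, all Mel-up with LLRs of 2.93, 2.64 and 1.71.

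Fzd1, a Frizzled receptor with a single exon, held 5 LPS-down and 3 Mel-up peaks. The strongest, in the 3′UTR at chr5:4753909-4754118, was LPS-down with an LLR of 5.64, and the peak inside it, at chr5:4753924-4754065, was Mel-up (2.35). A wide peak across the end of the coding sequence was LPS-down (chr5:4755603-4756202, 2.30) and Mel-up (chr5:4755599-4756205, 3.70). The other LPS-down peaks had LLRs of 1.88, 1.98 and 3.23, and the other Mel-up peak one of 3.47. The peaks of Fzd1 lay in both its coding sequence and its 3′UTR, and in each comparison they were listed in 1 direction.

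Fzd5, a receptor of β-catenin signalling, showed the other order. In its 3′UTR, with centres 4028 and 4033 bases past the stop codon, a peak at chr1:64730689-64730941 was LPS-up (1.58) and a peak at chr1:64730689-64730932 was Mel-down (3.39). Mel-down peaks were also held near its stop codon (1.38) and in the coding sequence (1.96). Fzd6, a receptor linked to planar polarity, held 2 LPS-up peaks (1.69 at exon 4 and 2.46 at exon 6), 2 Mel-down peaks (1.75 at exon 4 and 1.46 at exon 6) and 2 Mel-up peaks, both in exon 4 (1.04 and 4.03). Exon 4 of Fzd6 thus held both Mel-up and Mel-down peaks, at different positions.

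Fzd3, which like Fzd6 is known for planar polarity, held an intron 6 peak that was Mel-up (chr14:65207369-65207568, LLR 8.67), 2224 bases past the nearest exon. It also held a peak at exon 2 that was Mel-down (6.29, a value shared by 194 peaks of that table) and one labelled 5′UTR that was LPS-up (1.86). The remaining Frizzled genes Fzd2, Fzd7 and Fzd8 held 1 peak each, Mel-up, with LLRs of 1.16, 1.58 and 1.59. These 3 values were all below the median of the Mel-up peaks of Wnt signalling genes.

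Of the alternative Wnt receptors, Ror1, a receptor tyrosine kinase-like protein that binds Wnt ligands, held 4 coding peaks in exon 9. LPS-down peaks lay at chr4:100440899-100441363 (1.82) and chr4:100441472-100441682 (3.46). Mel-up peaks lay at chr4:100441151-100441359 (2.53) and chr4:100441521-100441670 (3.15). Each Mel-up peak lay wholly inside an LPS-down peak. Ryk, another Wnt-binding receptor, held a Mel-up peak at exon 9 (3.32) and Mel-down peaks at intron 11 (1.61) and in the 3′UTR (2.49). Ror2, the relative of Ror1, held none.

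**Figure D3:**
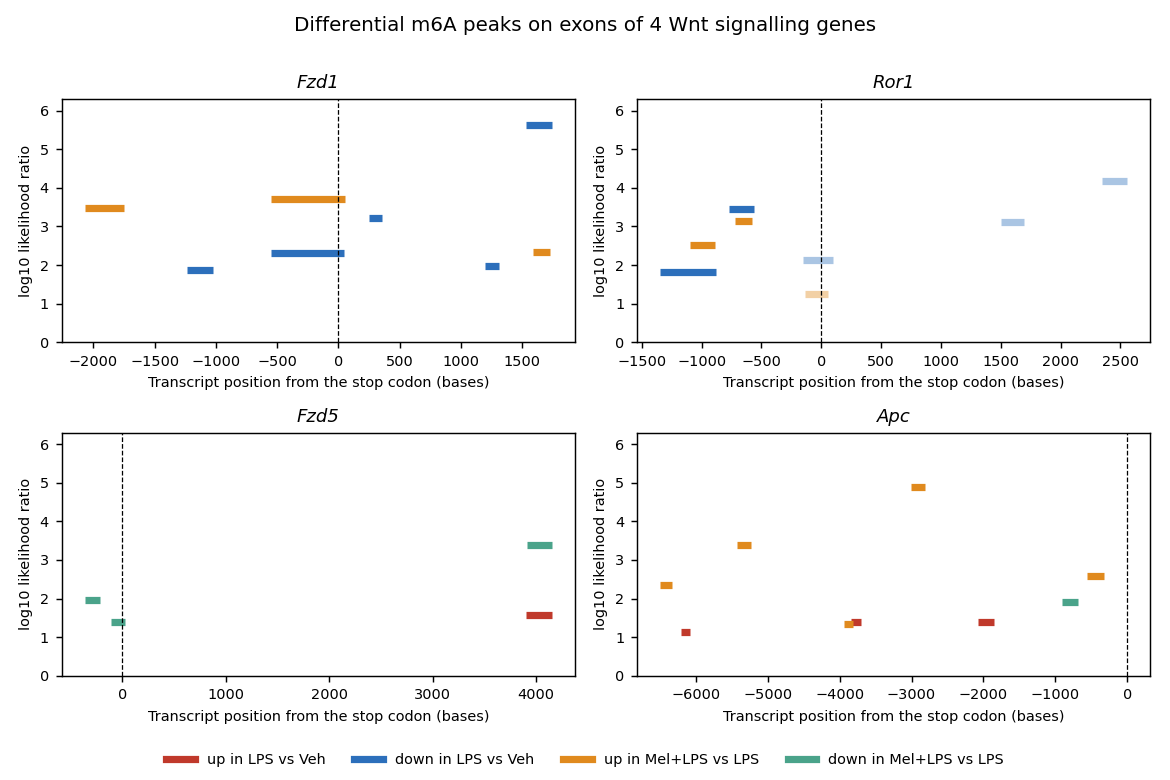
Bars mark the peaks on the exons of Fzd1, Ror1, Fzd5 and Apc by transcript position from the stop codon (bases, dashed line at 0) and by log10 likelihood ratio, coloured by table. Faded bars are peaks on the same exons that were not counted to the gene, because the annotation named no gene and the table assigned them to a neighbour. Fzd1 and Ror1 hold blue (LPS-down) and orange (Mel-up) bars, Fzd5 holds red (LPS-up) and green (Mel-down) bars, and Apc holds red, orange and green bars in its coding sequence.

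Receptor turnover is set by Znrf3 and Rnf43, ubiquitin ligases that remove Frizzled from the membrane, and by Lgr4 and Lgr5, receptors for R-spondins, which hold these ligases back. LPS-up peaks were held by Lgr4, Znrf3 and Rnf43, beside 46.7% of all genes with a peak. LPS-down peaks could be looked up only for Lgr4, since Znrf3, Rnf43 and Lgr5 do not lie on chromosomes 1 to 9. Lgr4 had 2, at exon 16 (3.07) and exon 18 (1.87). Znrf3 had 2, in intron 3 (3.78, a value that 1450 peaks of that table share) and in exon 9 (2.27). Rnf43 had 1 in exon 9 (1.40), and another part of exon 9 was Mel-up (2.11). Lgr5 held none.

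Of the 6 secreted inhibitors, 5 held 9 peaks, and 8 of the 9 were Mel-up, the largest table, which held 36.6% of the peaks of all genes. The 9 peaks come from 5 genes, and LPS-down peaks could be looked up for only some of these. Sfrp proteins bind Wnt ligands outside the cell. Sfrp5 had the strongest, a coding peak in exon 3 (chr19:42198703-42198903, LLR 7.49) and a 3′UTR peak (chr19:42198033-42198486, 7.33). Sfrp4 held Mel-up peaks at exon 1 (3.04), intron 3 (1.37) and the 5′UTR (1.36), and Sfrp1 held 1 in exon 4 (1.32). Dkk3, a member of the Dickkopf family, held 2, at exons 3 and 2 (2.05 and 1.25). The exception was Sfrp2, whose 3′UTR peak (chr3:83773580-83773726) was LPS-down with an LLR of 2.19. Notum, the enzyme that takes the lipid off Wnt proteins, held none. The genes without an LPS-down entry to look up are Sfrp4, Sfrp5 and Notum.

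Dishevelled proteins relay the signal from Frizzled to the destruction complex. Dvl1 held a peak at exon 1 that was Mel-up (chr4:155847862-155848029, 5.50), and Dvl2 held one at exon 4 in the same table (2.86). Dvl3 had none. Vangl1 and Vangl2 are membrane proteins of planar polarity. Vangl1 had a peak at exon 3 that was LPS-down (chr3:102189290-102189489, 5.76), one at exon 4 that was LPS-up (1.48) and one at exon 7 that was Mel-down (1.33). Vangl2 held 1 Mel-down peak, in intron 6 (1.24, a value shared by 79 Mel-down peaks). Vangl1 and Vangl2 were thus listed as Mel-down and not as Mel-up, each by 1 peak of low LLR. Fzd3 and Fzd6, the receptors linked to planar polarity, held both Mel-up and Mel-down peaks.

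β-catenin and its destruction complex held 29 peaks in 6 of 7 genes, beside 39 of the 48 Wnt signalling genes with a peak. Ctnnb1, which encodes β-catenin, held 4 Mel-up peaks with LLRs of 1.17, 1.23, 1.69 and 1.76. In intron 13 the Mel-up peak (chr9:120957885-120958036, 1.76) covered an LPS-down peak (chr9:120957891-120958025, 1.01). These were low values, all below 2.35, the median of the Mel-up peaks of Wnt signalling genes. Axin1, a scaffold of the complex, held 4 Mel-up peaks (1.22 to 4.56) and none in the other tables used for it.

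Axin2, a second scaffold and a direct target gene of β-catenin, was listed the other way round. It held 4 LPS-up and 4 Mel-down peaks. In exon 6 a peak was LPS-up (chr11:108942544-108942713, 1.46) and another over it was Mel-down (chr11:108942517-108942714, 1.53). In intron 3 the LPS-up peaks had LLRs of 1.19 and 2.54, and the Mel-down peaks 1.36, 2.22 and 4.69. The remaining LPS-up peak was in exon 2 (1.57). Axin1 and Axin2 thus stood in opposite tables for Mel+LPS against LPS, and whether the genes differed could not be tested.

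Apc, the large tumour suppressor of the complex, held 9 peaks, all in the coding sequence of its last exon. Of these 3 were LPS-up, with LLRs of 1.13, 1.39 and 1.40, 5 were Mel-up (1.33, 2.35, 2.58, 3.39 and 4.89) and 1 was Mel-down (1.91). Apc was thus listed as both LPS-up and Mel-up, at different positions except for 1 pair that overlapped by some bases. Its relative Apc2 held 1 LPS-up peak (1.34). Csnk1a1, the kinase that primes β-catenin for removal, held 2 Mel-up intron peaks (2.63 and 1.73). Gsk3b, the second kinase of the complex, held none.

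All 7 nuclear genes held a peak, beside 39 of the 48 Wnt signalling genes and 42.3% of RefSeq protein-coding genes. Lef1, a DNA-binding partner of β-catenin, had an LPS-down peak in the 5′UTR (chr3:131110474-131110607, 2.04), a Mel-up peak over it (chr3:131110488-131110609, 4.15) and a Mel-up peak at exon 8 (1.61). Tcf7l2, of the same family, had a Mel-up peak in intron 3 (chr19:55753488-55753678, 5.56) and an LPS-up peak at exon 10 (1.93). Tcf7l1 held 1 LPS-down peak (1.61). The peak of Tcf7 was Mel-up (4.26) and was the only 1 of the 123 labelled as promoter.

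Bcl9 and Bcl9l tie β-catenin to further coactivators. The same interval in intron 3 of Bcl9 (chr3:97221585-97221704) was LPS-up (6.19) and Mel-down (6.29), 2 values that recur in 242 and 194 peaks of their tables. Bcl9 also held LPS-up peaks in intron 1 (3.78) and exon 8 (1.54), a Mel-down peak in exon 10 (1.18) and a Mel-up peak in exon 8 (1.19). Its strongest values were thus in introns, and its exon peaks had the lower LLRs. Bcl9l held 7 peaks. They were LPS-up in the annotated 5′UTR (1.35) and in exon 10 (1.16), LPS-down in the 5′UTR (1.18) and at exon 9 (1.80), Mel-up at exon 3 (3.96) and in exon 8 (1.57), and Mel-down in exon 10 (1.49).

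Tnik is a kinase that acts with Tcf7l2 on target genes. Its exon 28 peak was Mel-up (chr3:28651879-28652049, 8.96), and its exon 15 peak was LPS-down (chr3:28596115-28596298, 5.75). In intron 17 a peak was LPS-up (chr3:28609322-28609438, 1.42) and a wider one was Mel-down (chr3:28609229-28609438, 6.95). In intron 4 a peak was LPS-up (chr3:28523228-28523437, 3.78, the value shared by 1450 peaks) and one from the same start was Mel-down (chr3:28523228-28523614, 3.92). By the authors' classes, the exon peaks of Tnik were LPS-down or Mel-up, whereas its intron peaks were LPS-up or Mel-down. The centre of the exon 28 peak, however, lay in an intron of the GENCODE transcript, 38 bases past the exon. By position the split therefore does not hold for Mel-up peaks.

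By the authors' annotation, 74 of the 123 peaks were in exons (60.2%, Wilson 95% interval 51.3–68.4, all genes 56.6%), 23 in introns (18.7%, 12.8–26.5, all genes 24.6%), 17 in 3′UTRs (13.8%, 8.81–21.0, all genes 12.8%), 8 in 5′UTRs (6.50%, all genes 5.30%) and 1 in a promoter. The exon and 3′UTR shares were near those of all genes. Read against GENCODE transcripts, 71 peak centres were on an exon, 50 in an intron and 2 outside the transcript. Of the 71, 55 were coding (77.5%, all genes 72.3%), 13 were in the 3′UTR (18.3%, all genes 25.0%) and 3 in the 5′UTR. The exon under a centre had a median length of 2239 bases over peaks, against 1595 over all genes. An exon with several peaks, such as the last exon of Apc, entered this median once per peak. Of the 71 centres, 42 were on the last exon (59.2%, all genes 53.4%). Within 200 bases of the stop codon there were 10 centres (14.1%, all genes 17.6%).

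The DRACH motif occurred in 70 of these 71 peaks (98.6%), beside 97.4% of all exonic peaks, and the peak without it was that of Fzd8. Read on the transcript strand, its frequency was 21.6 per 1000 exon bases, beside 24.7 over all genes. GGAC, which lies within DRACH unless a G follows, was in 44 of the 71 peaks (62.0%, all genes 60.5%). Since nearly every peak holds DRACH, its presence does not set Wnt signalling genes apart.

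Many peaks named as exonic were centred just outside the exon. Of the 74 exon peaks, 26 (35.1%) had their centre in an intron of the GENCODE transcript, at most 88 bases from the exon (median 40.5), and all 26 lay past its 3′ end in the direction of transcription. Among all genes 6655 of 13043 such peaks (51.0%) had their centre in an intron, and of the 6412 within 100 bases of an exon 6194 (96.6%) were past the 3′ end. The strong peaks of Tnik exon 28 (38 bases past), Dvl1 exon 1 (41), Vangl1 exon 3 (20) and Fzd3 exon 2 (59) were of this kind, whereas those of Lrp6 exon 10, Sfrp5 exon 3 and Wnt2 exon 3 had their centre on the coding exon.

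**Figure D4:**
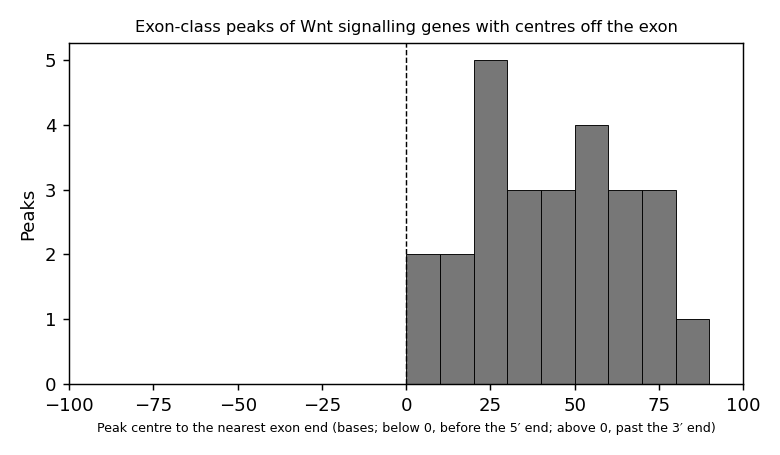
The histogram gives the number of exon peaks of Wnt signalling genes (y axis) by the distance in bases from the peak centre to the nearest exon end (x axis), for the 26 peaks with their centre off the exon. Every one of the 26 is to the right of 0, past the 3′ end, with the farthest at 88 bases.

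The authors' tables assign each peak to 1 gene, and for 55 of the 123 peaks (44.7%) this was not the Wnt signalling gene whose exon or intron held the peak. All 9 Apc peaks were assigned to Srp19 and the 4 Ror1 peaks to Ube2u. In addition, 19 peaks that were not counted above lay on exons of 8 of the 48 genes, 13 of them in the 3′UTR, but were assigned to a neighbour. The tables give no strand, so RNA of an overlapping gene on the other strand cannot be told apart. Fzd4, counted as without a peak, had 4 of these, all assigned to Tmem135: a 3′UTR peak that was LPS-down (chr7:89408474-89408607, LLR 9.23), coding peaks that were LPS-up (2.03) and LPS-down (1.24), and a Mel-up coding peak (1.42). Wnt6 had 2 that were LPS-down (1.34 and 1.95).

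Ror1 had 3 more LPS-down peaks on exon 9, around the stop codon (2.12) and in the 3′UTR (3.13 and 4.19), and 1 more Mel-up peak (1.26). With these, Ror1 was still listed only as LPS-down and Mel-up. Lgr4 gained 3 peaks in the 3′UTR, LPS-up (3.02), Mel-up (1.07) and Mel-down (1.24). Lrp6 gained 1 LPS-up peak across its stop codon (1.90), so that it then held LPS-up and LPS-down peaks. Fzd6 had 3 more, in its 3′UTR, 1 LPS-up (2.49) and 2 Mel-down (1.22 and 1.41).

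A list of 100 other genes of the pathway is set beside these. Of them 66 held a peak. LPS-up peaks were held by 31 (47.0%, all genes 46.7%). LPS-down peaks were held by 15 of 32 on chromosomes 1 to 9 (46.9%, all genes 48.0%). Mel-up peaks were held by 50 (75.8%, all genes 55.6%) and Mel-down peaks by 27 (40.9%, all genes 37.6%). The Mel-up share of the 48 genes (71.8%) was thus not higher than that of these other pathway genes. The highest LLRs for LPS against Veh were those of Cdc73, a nuclear cofactor of β-catenin (up in intron 2, 15.7, and down in intron 10, 10.9), Tnks, a tankyrase that marks Axin for removal (up at exon 22, 15.0), Dact2, a Dishevelled-binding protein (up in exon 4, 10.2), Celsr2, a planar polarity cadherin (down in exon 1, 8.51), and Invs, which encodes inversin (down in intron 11, 8.26). For Mel+LPS against LPS they were those of the histone demethylase gene Kdm2b (up in intron 3, 21.2), the acetyltransferase gene Ep300 (up at exon 10, 12.0), the transcription factor gene Nfatc1 (up at exon 7, 11.9), Mllt10 (down in intron 13, 10.1), Celsr2 (down in exon 1, 6.29) and Fbxw11, a ubiquitin ligase subunit (down in intron 1, 6.29). The last 2 have the value that 194 Mel-down peaks share. Kdm2b, Cdc73, Tnks, Ep300 and Nfatc1 thus exceeded the highest value among the 48 genes, that of Lrp6.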

How the data were processed

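Uterine RNA was fragmented to about 100 nt and precipitated with an m6A antibody. Per the labels and the study's methods, the authors used Fastp for trimming, STAR (2.5.2a) for alignment to mm10 and exomePeak2 for peak calling, then found differential peaks by MACS2 (given as 3.4) and annotated them with ChIPseeker (1.22.1). The submitters' processing notes also name HOMER (4.10). The score in the authors' deposited tables is the log10 likelihood ratio of each differential peak. How the 3 replicates were combined, and whether the score is corrected for input, is not given in the sources used here.

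The LPS-down table breaks off inside chromosome 10 and was used on chromosomes 1 to 9, so 40929 of 41084 peaks were used. The 48 genes, their roles and the list of other pathway genes were chosen with earlier results of these data known, so their shares are not independent evidence. Genes are described in full when among the 10 highest log likelihood ratios or with peaks in 3 or 4 tables, and other pathway genes are named when among the 3 highest of a table. Peak centres were placed on 1 GENCODE (M21, GRCm38) transcript for each of 21840 protein-coding genes, all 48 included, with Python (3.11.15), numpy (2.4.6) and pandas (2.3.3). Mapping, motif search and the definition of a held peak were tested on simulated data. No p-value was computed, since no value per library was used. Wilson 95% intervals cover counting error only. Feature classes other than by the authors, stricter likelihood ratios, other ways to tie peaks to genes, another motif and shifted sequence were tried as alternatives.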

Additional observations from a re-analysis of the deposited data

How the results depend on the processing

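No paired analysis was possible because the tables hold no value per replicate, and for the same reason no library could be left out. When only peaks with a likelihood ratio from 3 upward counted, the genes with a peak numbered 4 (LPS-up), 6 (LPS-down), 16 (Mel-up) and 5 (Mel-down), by construction fewer than 16, 11, 28 and 13. The counts stayed within 1.5 times when the annotation had to name the gene (12, 9, 25 and 11) and when any assigned peak counted (19, 12, 28 and 16). They also did so (16, 9, 19 and 10) when every peak centred on a GENCODE exon counted, whatever gene it was assigned to. This setting was chosen after seeing the data. It takes in the 19 exon peaks that the definition leaves out, so it does not show how many genes keep a held peak centred on an exon. The share of 3′UTR peaks was 0% where the annotation had to name the gene, since 3′UTR annotations name none, and 12.8%, 16.2% and 18.3% with the stricter ratio, with 1 peak per gene and table, and by GENCODE centre. GGAC occurred 6.34 times per 1000 bases where DRACH occurred 21.6 times, and DRACH in sequence 100 bases upstream 19.5 times. Depth, library spread and RNA level are not known from these tables, so none of the values has an error over mice.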

Other observations

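Some log likelihood ratios recur to the last digit across unrelated peaks. Among LPS-up peaks the value 3.78494 was given to 1450. Of all LPS-up peaks 20.8% shared their value with another peak of the table, as did 40.8% of those in introns and 12.2% of those in exons. The commonest values were 3.63445 (734 peaks) for LPS-down, 5.42348 (479 peaks) for Mel-up and 3.85169 (1370 peaks) for Mel-down. Among the Wnt signalling genes, 13 peaks carried such a value. The intron peaks of Bcl9 (intron 1), Tnik (intron 4) and Znrf3 (intron 3) all had 3.78494. Low values recurred too. The Mel-down peaks of Wnt2 and Vangl2 both had 1.23697 (79 peaks). An LPS-up peak of Apc had 1.13472 (77 peaks), and the Mel-up peak at Lrp6 exon 9 had 1.41246 (68 peaks). The strong intron 3 peak of Bcl9 had 6.19376 as LPS-up, one of 242 such peaks, and 6.29388 as Mel-down, one of 194, the Fzd3 exon 2 peak among them. The top peaks of Lrp6, Tnik exon 28, Wnt2 exon 3 and Sfrp5 had values that were not repeated. What these repeated values reflect was not tested.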
